A study of Secale cereale x Triticum turgidum subsp. durum with 39 samples.

Results

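petC is the gene of the Rieske protein, the iron-sulphur subunit of the cytochrome b6-f complex of chloroplasts. It was followed across anthers, ovaries, stigmas and mature pollen of triticale, the hybrid cereal of wheat and rye. The probe sets were those to which the array's gene annotation gives the symbol petC, and 2 of the 61290 probe sets of the table carried it. The gene was chosen by its measured levels in these same groups, so its levels and differences are given as a description, with no test.

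The cytochrome b6-f complex sits in the thylakoid membrane and passes electrons from photosystem II to photosystem I by way of plastocyanin. The Rieske protein carries out the transfer from plastoquinol within that complex. petC is a nuclear gene in land plants, and its protein is imported into the chloroplast. Young anther walls and ovary walls of cereals are green, while pollen carries colourless plastids.

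RNA was measured on 39 arrays of the Affymetrix Wheat Genome Array, in 13 groups of 3 replicates that the labels call biological. The development of the pollen dates the 4 stages at which each of the 3 organs was collected. TET stands for tetrads, UNM for uninucleate microspores, BCP for pollen of 2 cells and TCP for pollen of 3 cells, and MPG, mature pollen grains, is the last group. All plants were of the cultivar Alta and grew without any treatment at 20 °C by day and 18 °C by night with 16 h of light. Samples were whole organs, so an anther sample held wall, tapetum and developing pollen together. In such samples fewer cells of a type and less RNA per cell cannot be told apart. The array carries wheat sequences, and a rye copy of a transcript may bind to it less well. Not all stages were handled alike. PicoPure extraction and two-cycle labelling were used at TET, RNeasy extraction with the 3' IVT Express kit at both UNM and BCP, and CsCl extraction with one-cycle labelling at TCP and for pollen. A step between TET and UNM, or between BCP and TCP, therefore cannot be told apart from its change of kit, whereas organs within a stage, UNM against BCP, and pollen against the TCP organs were measured with matched kits.

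Values are log2 signals, on which a difference of 1 is a 2-fold difference of signal. Within groups the arrays correlated at 0.978 to 0.996, and for 39 of 39 the closest array was a replicate. Of the markers looked for as a check of the tissues, those with a named probe set were the actin control transcript, petC, FBP (a fructose bisphosphatase) and XTH (a xyloglucan endotransglucosylase/hydrolase). Actin went from 5.96 in TET anthers to 13.98 in TCP anthers and 13.61 in pollen, and lay between 6.05 and 7.15 in ovaries and stigmas. XTH reached 13 in TCP stigmas and stayed between 5.36 and 6.84 in anthers. It did not set stigmas apart from ovaries at TET (7.60 against 7.79) or UNM (9.01 against 9.17), and reached 9.82 in TCP ovaries. The identity of ovaries and stigmas was not checked further.

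One of the petC probe sets carried nearly all of the signal. The brighter, Ta.861.1.S1_at, had group means from 6.18 to 12.65, and petC means this probe set below. The additional one, TaAffx.128418.105.S1_at, stayed between 3.10 and 4.02 on all 39 arrays, with group means from 3.22 to 3.84. Tag control probe sets, which match nothing in the sample, had a median of 3.78 and a 95th percentile of 5.06. The additional probe set thus lay within the range of probe sets without a target, and over the 13 group means, which share kits and scaling, it had a Pearson's r of -0.30 and a Spearman's rho of -0.03 with the brighter one. Why the probe sets differ was not tested.

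petC was highest in anthers at UNM. Its arrays read 12.52, 12.75 and 12.69 there, a mean of 12.65 ± 0.12 (SD, n = 3), brighter than 99.5% of the probe sets on the array on average. In TET anthers it read 9.93, 9.45 and 10.55, with a mean of 9.98 ± 0.55 (SD, n = 3), the widest spread of the 13 groups. BCP anthers gave 11.57, 11.20 and 10.73, with a mean of 11.17 ± 0.42 (SD, n = 3). The UNM arrays stood above all other arrays of the study. In TCP anthers petC read 7.83, 7.55 and 7.68, a mean of 7.69 ± 0.14 (SD, n = 3), below every array of the earlier anther stages.

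Ovaries followed another course, with low petC at TET and a plateau at the later stages. The TET arrays read 7.88, 7.64 and 7.73, a mean of 7.75 ± 0.12 (SD, n = 3). The UNM arrays read 9.68, 9.95 and 9.99, a mean of 9.87 ± 0.17 (SD, n = 3). At BCP they read 10.88, 10.85 and 10.63, a mean of 10.79 ± 0.13 (SD, n = 3). The arrays of these stages did not overlap with one another. The TCP ovaries read 10.75, 10.84 and 10.84, a mean of 10.81 ± 0.05 (SD, n = 3), which lay inside the span of the BCP arrays.

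Stigmas held less petC than ovaries at each stage. The TET arrays read 6.69, 7.05 and 6.67, a mean of 6.80 ± 0.22 (SD, n = 3). The UNM arrays read 8.21, 7.69 and 8.25, a mean of 8.05 ± 0.32 (SD, n = 3). The BCP arrays read 8.93, 8.88 and 9.29, a mean of 9.03 ± 0.22 (SD, n = 3), the highest of the stigma stages. The TCP stigmas read 7.65, 7.94 and 7.98, a mean of 7.86 ± 0.18 (SD, n = 3), and overlapped with the UNM stigmas.

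Mature pollen had the lowest petC of all groups. Its arrays read 6.33, 6.50 and 5.70, a mean of 6.18 ± 0.43 (SD, n = 3), brighter than 70.5% of the probe sets of the array on average. The tag controls were brightest on the pollen arrays, with a 95th percentile of 5.69 and a highest value of 6.31 there, against at most 5.47 on the arrays of all other groups. Of the 51 tag values on pollen arrays 3 lay above the lowest pollen value of petC and 0 above the highest. Pollen petC thus overlapped the upper end of its own background, and a fold against pollen is one of signal only.

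**Figure D1:**
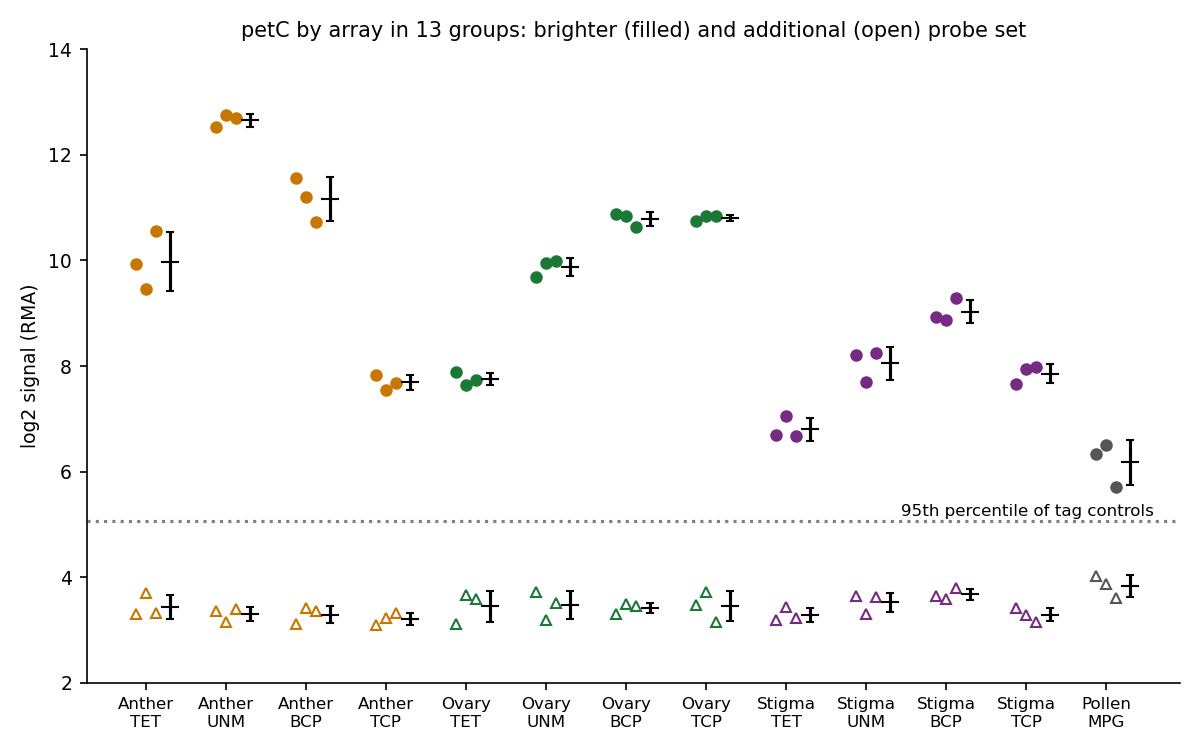
Log2 signal of both petC probe sets on each of the 39 arrays by organ and stage, with the mean and SD of each group of 3; the dotted line is the 95th percentile of the tag controls. The brighter probe set (filled) peaks at 12.65 in UNM anthers and is lowest in mature pollen at 6.18, while the additional probe set (open) stays between 3.10 and 4.02.

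Ranked by mean, the 13 groups fell into blocks. UNM anthers stood alone at the top, 1.49 above the next group. BCP anthers (11.17), TCP ovaries (10.81) and BCP ovaries (10.79) followed with overlapping arrays. TET anthers (9.98) and UNM ovaries (9.87) overlapped too. BCP stigmas (9.03) stood alone, and below them UNM stigmas (8.05), TCP stigmas (7.86), TET ovaries (7.75) and TCP anthers (7.69) formed a chain in which each pair of neighbours overlapped. TET stigmas (6.80) and pollen (6.18) closed the order, each apart from its neighbour above. In all, 6 of the 12 neighbouring pairs overlapped. The neighbours in this order that were measured with different kits are set side by side here only as signals.

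From highest to lowest group the petC mean spanned 6.48, an 89-fold difference of signal. Its ends, UNM anthers and pollen, were measured with different kits, and pollen petC overlapped the upper end of its background. The same span was larger for 1768 probe sets, 2.89% of those on the array outside the controls, and its median was 1.49. The spread of petC between replicates, pooled over groups, was an SD of 0.28, and 85.8% of probe sets had a smaller one. The span of the groups was therefore many times the spread of the replicates, which does not include a change of kit.

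Which organ held the most petC depended on the stage. At TET, petC was higher in anthers than in ovaries by 2.23 (SE 0.21, 4.68-fold), and the arrays did not overlap, as for 35.6% of all 61204 probe sets outside the controls. Against stigmas at TET, anthers were higher by 3.17 (SE 0.21, 9.03-fold), without overlap, as for 34.8% of probe sets. Stigmas differed from ovaries at TET by -0.95 (SE 0.21, 1.93-fold), without overlap, as for 18.8%, and by -0.59 with the arrays scaled to the hybridisation controls. The order at TET was thus anther, ovary, stigma, with every array in its place.

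At UNM the same order held, with gaps of signal that were wider across the change of kit. Scaled to the hybridisation controls, anther minus ovary was 2.42 at UNM and 2.13 at TET. Anthers were above ovaries by 2.78 (SE 0.21, 6.88-fold), without overlap, as for 40.9% of probe sets. Anthers were above stigmas by 4.60 (SE 0.21, 24.3-fold), without overlap, as for 43.6%. The difference of stigmas from ovaries was -1.82 (SE 0.21, 3.53-fold), without overlap, as for 24.6%.

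At BCP anthers and ovaries met. The difference between them was 0.38 (SE 0.21, 1.31-fold), and their arrays overlapped, whereas 45.1% of probe sets had no overlap in that comparison. It was 0.18 without the BCP anther replicate 1 and 0.60 without the BCP anther replicate 3. Anthers remained above stigmas by 2.14 (SE 0.21, 4.41-fold), without overlap, as for 42.1% of probe sets. Stigmas against ovaries gave -1.76 (SE 0.21, 3.38-fold), without overlap, as for 34.2%.

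At TCP the ovary held the most. The difference of anthers from ovaries was -3.12 (SE 0.21, 8.67-fold), without overlap, as for 65.8% of probe sets. The difference of stigmas from ovaries was -2.95 (SE 0.21, 7.72-fold), without overlap, as for 46.7%. Anthers and stigmas overlapped at -0.17 (SE 0.21, 1.12-fold), where 58.1% of probe sets did not, and the sign turned (0.08) with the arrays scaled to their brighter probe sets. Scaled to the hybridisation controls, that value was -0.68. The poly-A control transcripts, added to the RNA before labelling, were at 8.44 in TCP ovaries against 5.91 in anthers and 5.86 in stigmas. Their part in the petC difference was not tested.

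Pollen was below each of the organs of its kits. Against TCP anthers the petC difference was -1.51 (SE 0.21, 2.85-fold), without overlap, as for 50.4% of probe sets. Against TCP ovaries it was -4.63 (SE 0.21, 24.7-fold), without overlap, as for 79%. Against TCP stigmas it was -1.68 (SE 0.21, 3.20-fold), without overlap, as for 74%, and -2.60 when scaled to the hybridisation controls. Separate arrays were thus the rule among all probe sets in these comparisons, petC included. The median of all probe sets itself differed between these groups, so that relative to it the pollen minus ovary value was -4.96. The poly-A controls of pollen were at 8.88, close to those of TCP ovaries.

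Between UNM and BCP, the only step of stage measured with matched kits, petC was lower at BCP in anthers and higher at BCP in the other organs. In anthers the change was -1.49 (SE 0.21, 2.80-fold), without overlap, as for 35.2% of probe sets. In ovaries it was 0.91 (SE 0.21, 1.88-fold), without overlap, as for 24.5%. In stigmas it was 0.98 (SE 0.21, 1.97-fold), without overlap, as for 26.4%. The poly-A controls were higher at BCP in all 3 organs: anthers had 6.82 after 6.03, ovaries 6.99 after 5.16, and stigmas 6.89 after 5.45. The hybridisation controls of anthers went from 11.04 to 10.50. Their part in the changes was not tested, and the opposed signs held with the arrays scaled to the hybridisation controls, at -0.94 in anthers, 1.26 in ovaries and 1.47 in stigmas.

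Across the changes of kit, petC was higher at UNM than at TET in all organs. The difference was 2.68 in anthers (SE 0.21, 6.40-fold), 2.12 in ovaries (SE 0.21, 4.35-fold) and 1.25 in stigmas (SE 0.21, 2.38-fold). With the arrays scaled to the hybridisation controls the stigma value was 0.49. None of the 3 had overlapping arrays, as was so for 49.7%, 47.4% and 48% of probe sets in turn. From BCP to TCP the difference was -3.48 in anthers (SE 0.21, 11.2-fold) and -1.17 in stigmas (SE 0.21, 2.25-fold), without overlap, as for 64.6% and 44.8% of probe sets. In ovaries it was 0.02 (SE 0.21, 1.01-fold) with overlapping arrays, where 48.9% of probe sets did not overlap, and its sign turned without the BCP ovary replicate 3 (-0.057). Of the 24 comparisons, 21 had arrays without overlap and 3 had overlap.

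**Figure D2:**
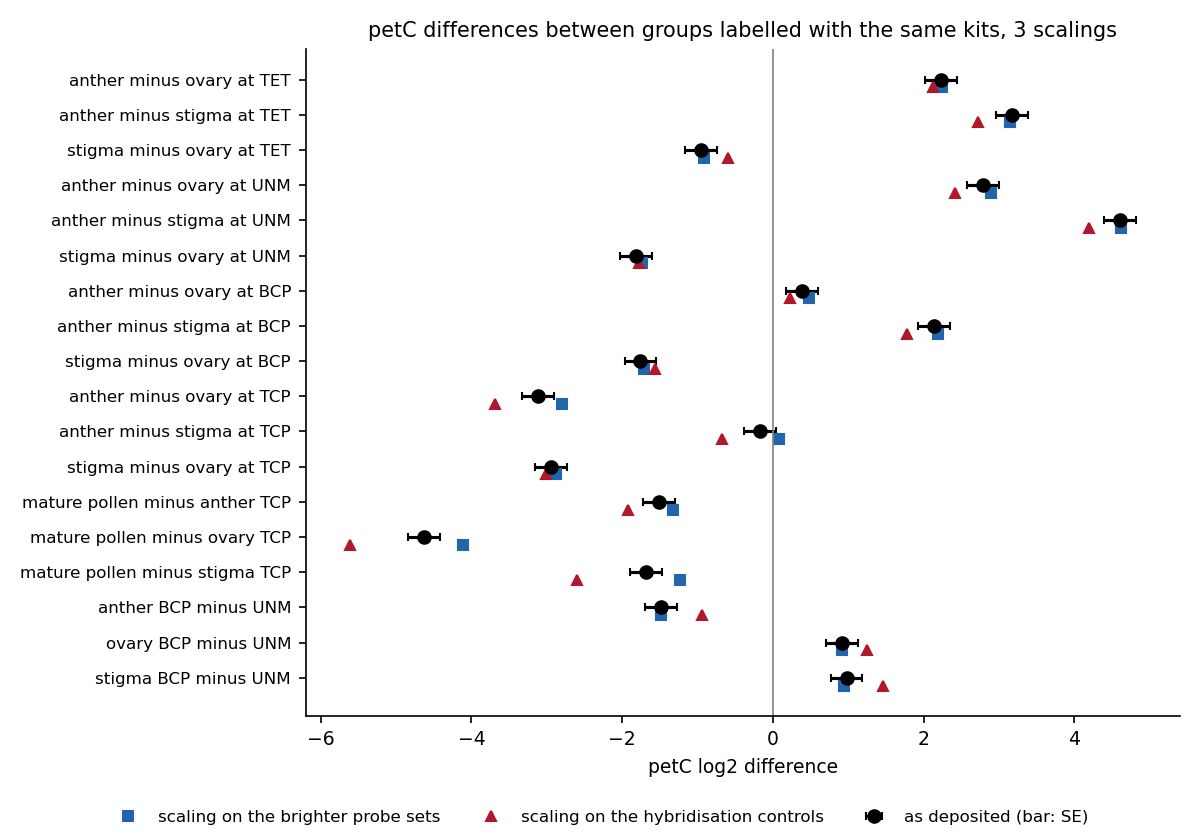
Log2 differences of petC in the 18 comparisons within matched kits, as deposited with the SE (black) and with the arrays scaled to their brighter probe sets (blue) or their hybridisation controls (red). The pollen minus ovary value moves the most, from -4.63 to -4.11 and -5.61. As deposited, anther minus stigma at TCP (-0.17) and anther minus ovary at BCP (0.38) lie nearest 0. Scaled to the hybridisation controls they are -0.68 and 0.22.

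Few probe sets shared the whole arrangement. Ovaries lay above stigmas at every stage, with no overlap, for 1493 of the 61204 probe sets (2.44%). Anthers lay above ovaries at TET and UNM, and below them at TCP, for 1534 (2.51%). BCP lay below UNM in anthers and above it in ovaries and stigmas for 668 (1.09%), and UNM above TET in all organs for 6121 (10%). All of these held together for 11 probe sets (0.018%), petC among them, and the other 10 had no gene name. petC was chosen on these levels, so its presence among the 11 is a description.

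The list of photosynthesis and plastid genes looked for beside petC covered photosystem, cytochrome b6-f, ATP synthase, Calvin cycle, chlorophyll synthesis and photorespiration genes. FBP and CAT1 were its members with a name in the annotation. Fructose bisphosphatase works in the Calvin cycle in its chloroplast form and in sucrose synthesis in its cytosolic form, and the files do not say which one Ta.439.1.S1_at detects. Catalases break down hydrogen peroxide, including that made in leaf photorespiration. Their differences were tested with limma, fitted over all probe sets, with Benjamini-Hochberg adjusted p-values, and called at an adjusted p under 0.05 with a log2 difference of at least 1. Over the 24 comparisons FBP was called higher in 11 and lower in 5, and CAT1 higher in 7 and lower in 1. The share of all probe sets called ran from 1.4% to 42% by comparison.

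FBP was at its highest where petC was, in UNM anthers. It read 9.80, 10.02 and 9.99 there, against 5.43, 5.94 and 6.15 in UNM ovaries and 5.96, 5.49 and 6.16 in UNM stigmas. The anther arrays were far above both. The anther minus ovary difference was 4.09 (SE 0.20, 17.1-fold, limma adjusted p = 6e-18), where 12.5% of probe sets were called, and against stigmas it was 4.07 (adjusted p = 5.9e-18), where 12.7% were called. FBP was also called higher in anthers than in ovaries and stigmas at TET, by 1.58 (adjusted p = 1.5e-07; 8.31% of probe sets called) and 1.84 (adjusted p = 5.8e-09; 8.75% called). The TET stigmas read 4.86, 5.00 and 4.94 and the TET ovaries 5.53, 5.01 and 5.04. Only the 5.53 lay above the tag controls' 95th percentile of 5.06. The 1.58 and the 1.84 are thus differences of signal and not measured ratios of transcripts. At BCP the values were 1.54 (adjusted p = 1.3e-07; 13.7% called) and 1.58 (adjusted p = 7.2e-08; 14.7% called). At BCP petC in anthers and ovaries overlapped, while FBP did not.

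Stigmas and ovaries, whose petC arrays were separate at each stage, had no called FBP difference up to BCP. The FBP stigma minus ovary values were -0.26 at TET (limma adjusted p = 0.69), 0.03 at UNM (adjusted p = 0.97) and -0.04 at BCP (adjusted p = 0.95), with 1.82%, 3.09% and 6.89% of probe sets called. At TCP stigmas were at 8.87 ± 0.24 (SD, n = 3) and ovaries at 7.06 ± 0.09 (SD, n = 3). FBP was thus called higher in stigmas by 1.81 (adjusted p = 4.9e-09; 12.7% of probe sets called), where petC had the opposite sign at -2.95. FBP was lower in TCP anthers than in stigmas, at -1.52 (adjusted p = 8.5e-08; 23.3% called), and not called against ovaries, at 0.29 (adjusted p = 0.22; 26.5% called).

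In pollen FBP was at 6.14, within the reach of the pollen tag controls (at most 6.31). It was called lower than in TCP anthers, at -1.22 (limma adjusted p = 6.7e-06; 15.7% of probe sets called), and than in TCP stigmas, at -2.74 (adjusted p = 4.3e-14; 38.6% called). Against TCP ovaries it was -0.92 (adjusted p = 0.00014; 42% called), under the minimum difference, and it was called at -1.90 (adjusted p = 1.1e-09) with the arrays scaled to the hybridisation controls. petC, like this FBP probe set, was lowest in pollen in all of these comparisons. A second FBP probe set, TaAffx.106041.1.S1_at, had the opposite sign, with pollen arrays of 6.71 to 7.05, above the pollen tag controls. It was called higher in pollen than in TCP ovaries, at 1.63 (limma adjusted p = 1.8e-08). Against TCP stigmas it was called higher too, at 1.40 (adjusted p = 3.7e-07), and against TCP anthers it was 0.54 and not called.

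FBP changed between UNM and BCP with the same signs as petC. It fell in anthers by 1.18 (limma adjusted p = 2.5e-05; 8.29% of probe sets called) and rose in ovaries by 1.37 (adjusted p = 4.5e-05; 1.4% called) and in stigmas by 1.30 (adjusted p = 1.8e-05; 3.61% called). The fall in anthers was no longer called with the arrays scaled to the hybridisation controls, at -0.64 (adjusted p = 0.019), or without the BCP anther replicate 3, at -0.89. The difference between the changes was itself put through the same fit after the values were seen, so its p-values are given as a description. It was -2.55 between anthers and ovaries (SE 0.29, adjusted p = 2.3e-08; 9.51% of probe sets called) and -2.49 between anthers and stigmas (adjusted p = 3e-08; 10.9% called). Between stigmas and ovaries it was -0.06 (adjusted p = 0.96; 3.29% called).

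At the steps across kits, FBP was called higher at UNM than at TET in anthers, at 3.17 (limma adjusted p = 7.4e-15; 15.4% of probe sets called). In ovaries (0.65) and stigmas (0.94) it did not reach the minimum difference, where 11% of probe sets were called in each, and the stigma value was called without the UNM stigma replicate 2 (1.13). From BCP to TCP it was lower in anthers, at -1.40 (adjusted p = 3.7e-07; 25.9% called), and higher in stigmas, at 1.70 (adjusted p = 2.8e-08; 11.2% called). In ovaries it stood at -0.15 (adjusted p = 0.67; 7.75% called). In TCP stigmas the signs of both genes were opposed: the difference from BCP was -1.17 for petC and 1.70 for FBP, with kit and stage not told apart. The second FBP probe set, TaAffx.106041.1.S1_at, did not follow the first, since it was highest in pollen at 6.90 and had means from 4.50 upwards.

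CAT1, by Ta.442.1.S1_at, was higher in anthers up to BCP and dim elsewhere. In UNM anthers it read 7.24, 8.77 and 8.41, against 4.79, 4.25 and 5.11 in ovaries and 4.27, 4.40 and 4.68 in stigmas, which lie near or under the 95th percentile of the tag controls, 5.06. The UNM anther minus ovary difference of signal was 3.42 (SE 0.31, limma adjusted p = 4.4e-11), and against stigmas it was 3.69 (adjusted p = 6.1e-12). At TET the values were 1.86 (adjusted p = 1.6e-05) and 2.13 (adjusted p = 1.6e-06). The BCP values were 1.80 (adjusted p = 1.6e-05) and 2.47 (adjusted p = 5.2e-08). The CAT1 means of ovaries and stigmas at TET (5.05 and 4.78), UNM (4.72 and 4.45) and of stigmas at BCP (4.85) lay under 5.06, so these differences are no measured ratios of transcripts.

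Between stigmas and ovaries CAT1 had no called difference at any of the 4 stages, nor among the TCP organs and pollen, but at TCP several values lay close to the minimum difference. Anther minus stigma was 0.94, and it was called with the arrays scaled to their brighter probe sets (1.19) and without the anther replicate 2 (1.04), the stigma replicate 1 (1.16) or the stigma replicate 3 (1.02). Stigma minus ovary was -0.88, and it was called without the ovary replicate 3 (-1.04) or the stigma replicate 1 (-1.10). Pollen minus stigma was 0.84, and it was called with the brighter-probe scaling (1.29), without the stigma replicate 1 (1.07) and without the pollen replicate 1 (1.19). Pollen minus ovary went from -0.03 to -1.01 with the arrays scaled to the hybridisation controls and was then called (adjusted p = 0.0065).

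From UNM to BCP CAT1 was not called in any organ, at -0.82 in anthers (limma adjusted p = 0.06), 0.81 in ovaries (adjusted p = 0.15) and 0.40 in stigmas (adjusted p = 0.56). The signs were those of petC. The anther value was called without the UNM anther replicate 1 (-1.27, adjusted p = 0.0024) or the BCP anther replicate 1 (-1.14, adjusted p = 0.012), over a range of -1.27 to -0.51 with 1 array left out. The ovary value was called with the arrays scaled to the hybridisation controls (1.15, adjusted p = 0.019). The difference between the changes was called between anthers and ovaries, at -1.63 (SE 0.44, adjusted p = 0.0082), where 9.51% of probe sets were called. It was not called between anthers and stigmas, at -1.22 (adjusted p = 0.052), where 10.9% were. The UNM means of ovaries (4.72) and stigmas (4.45) lay under 5.06, so these are differences of signal only. These contrasts, too, were added after the values were seen, and their p-values are a description. CAT1 was higher in UNM than in TET anthers, at 1.23 (adjusted p = 0.0017), a call that was lost with the arrays scaled to the hybridisation controls (0.51) and without the UNM anther replicate 2 (0.92). It was lower in TCP than in BCP anthers, at -1.60 (adjusted p = 4.5e-05). The second CAT1 probe set had group means from 4.09 to 4.9 and did not show these differences.

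**Figure D3:**
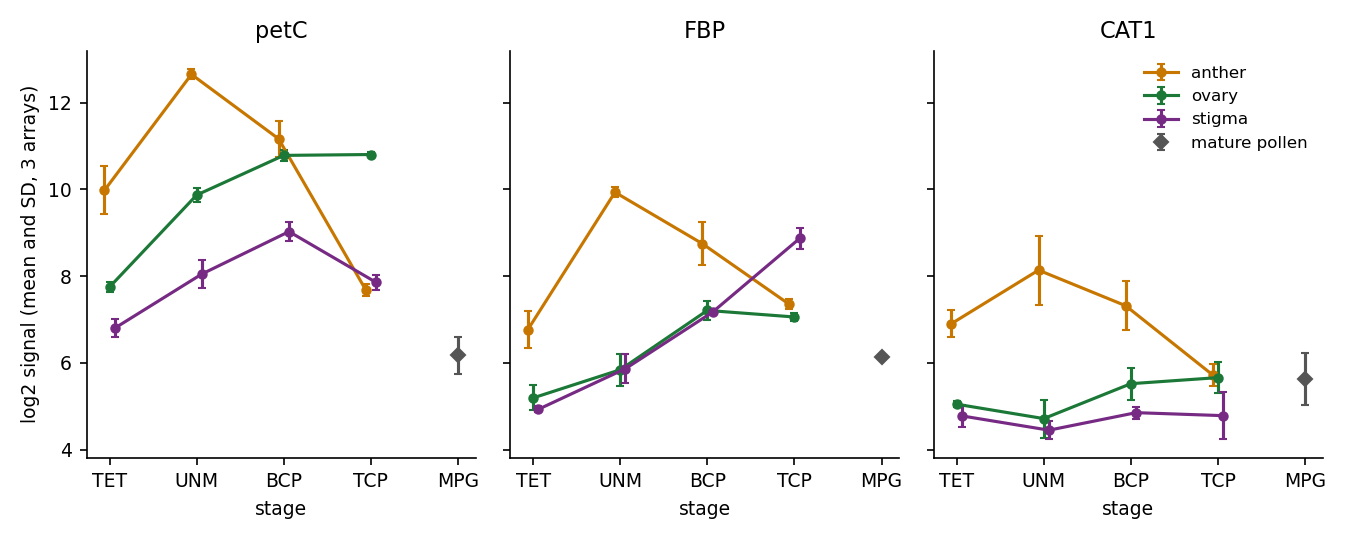
Mean log2 signal and SD (3 arrays) of petC, FBP and CAT1, each by its brighter probe set, by stage in anthers, ovaries, stigmas and mature pollen. The means of all 3 genes are highest in UNM anthers, at 12.65, 9.94 and 8.14, but the CAT1 arrays there overlap those of TET and BCP anthers. At TCP petC is highest in ovaries while FBP is highest in stigmas, at 8.87.

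The likeness of other probe sets to petC was measured by Pearson's r over the 13 group means, among the 17811 probe sets with a group mean of at least 8. The points share the kits and the scaling of the arrays, and the values are descriptions. The median r was 0.25. An r of at least 0.9 was reached by 76 probe sets (0.43%) and an r of -0.9 or lower by 4.

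The probe set most like petC was Ta.1135.1.S1_at, with r of 0.98 and Spearman's rho of 0.96. Its anther means were 9.37, 12.41, 10.96 and 7.16 from TET to TCP, and its ovary means 7.60, 9.31, 10.32 and 10.30. The stigma means were 7.25, 8.38, 8.44 and 6.87. Its pollen mean of 6.20 lay under the highest tag value on pollen arrays, 6.31, as did that of petC. Like petC, Ta.1135.1.S1_at was highest in UNM anthers and lowest in pollen and had like signals in BCP and TCP ovaries, across a change of kit. It differed in stigmas, where its TCP mean lay below its TET mean, while that of petC lay above. The next, Ta.25440.1.S1_a_at (rho 0.95), ran from 8.89 in UNM anthers to 4.58 in pollen, and its ovary means were 7.28 at UNM, 7.44 at BCP and 7.09 at TCP. Its means in pollen, TET stigmas (4.82) and TCP anthers (4.84) lay under the tag controls' 95th percentile of 5.06. The most opposed were Ta.11281.1.S1_at, with r of -0.93, which ran from 6.66 in BCP anthers to 9.18 in pollen, and TaAffx.12285.1.A1_at, which ran from 7.17 to 9.65 between the same groups. The annotation used here names none of these 4.

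**Figure D4:**
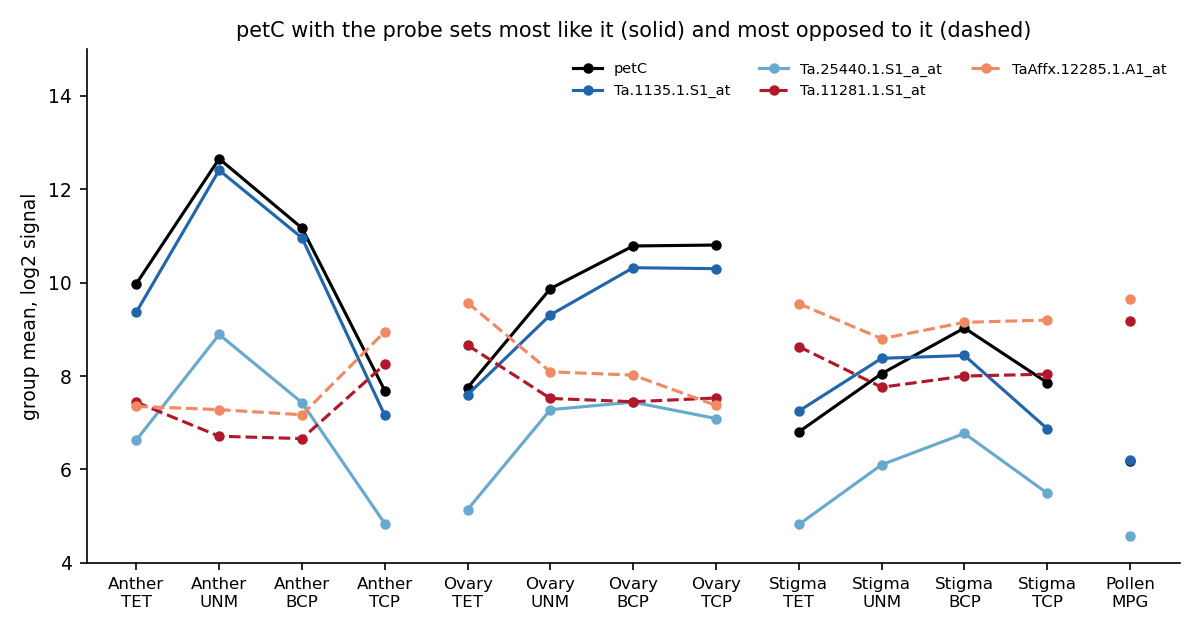
Group means (log2 signal) of petC, of the probe sets most like it (solid) and of those most opposed to it (dashed) over the 13 groups. petC and Ta.1135.1.S1_at both peak in UNM anthers and are lowest in pollen, where their points coincide under the highest pollen tag value of 6.31. The heights of different probe sets cannot be compared as transcript levels.

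The 20 other genes with a name were given an r whatever their level, and 12 had r above 0. The highest was SAHH (S-adenosylhomocysteine hydrolase, which clears the by-product of methylation reactions) at 0.70, with rho of 0.82. CAT1 followed at 0.68 (rho 0.49) and FBP at 0.63 (rho 0.52). GAPN (the non-phosphorylating glyceraldehyde-3-phosphate dehydrogenase) had 0.60 (rho 0.29) and G-6-PDH (glucose-6-phosphate dehydrogenase, of the oxidative pentose phosphate pathway) 0.59 (rho 0.61). None of these was close to the top: 5.36% of the ranked probe sets had a higher r than SAHH, and 10.17% a higher one than FBP. Without the 2 groups farthest from petC's median, r was 0.59 for SAHH, 0.61 for CAT1, 0.43 for FBP, 0.47 for GAPN and 0.37 for G-6-PDH. Without pollen the order was another, with r of 0.76 for CAT1, 0.68 for GAPN, 0.63 for SAHH and for FBP, and 0.44 for G-6-PDH. The lowest were COR410 (a dehydrin of cold acclimation) at -0.69, THI1.1 at -0.77 and THI1.2 at -0.78, with group means of at most 4.49, 5.22 and 3.72, at or near the level of the tag controls. With the arrays scaled to the hybridisation controls these were -0.31, -0.65 and -0.35.

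**Figure D5:**
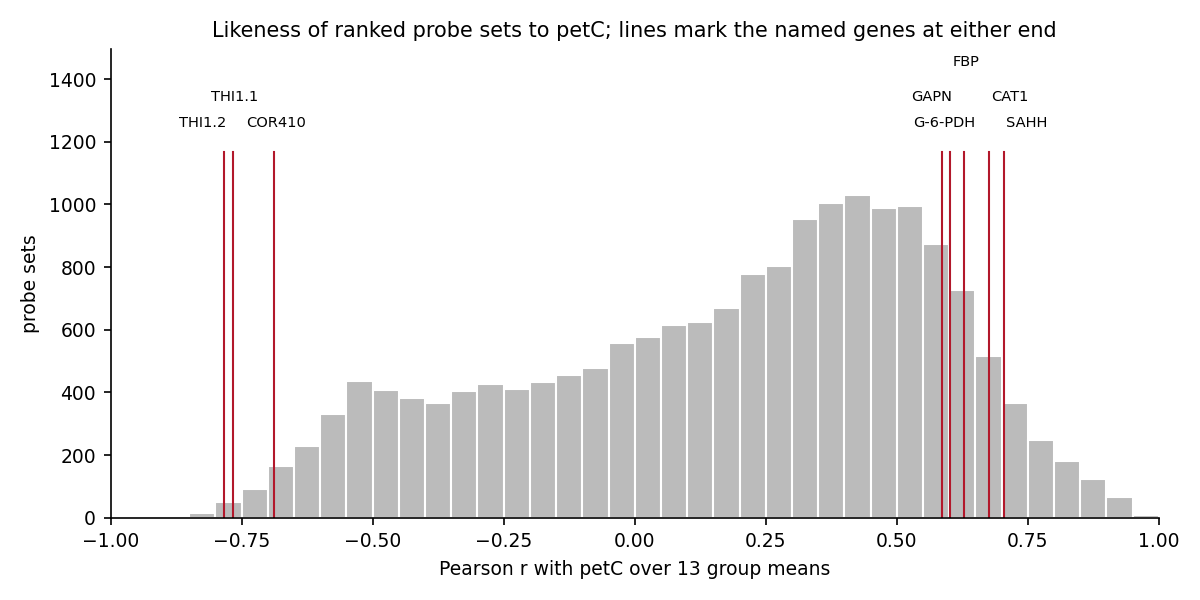
Number of ranked probe sets by Pearson's r with petC over the 13 group means, with lines at the named genes of highest and lowest r. The lines of SAHH, CAT1, FBP, GAPN and G-6-PDH lie between 0.59 and 0.70, below the 76 probe sets at 0.9 or more.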

How the data were processed

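Total RNA of 39 triticale samples was hybridised to wheat arrays. The deposited values are log2 signals, made by the authors with RMA as the submitters' processing notes say. No version of RMA is given in the sources used here, nor whether it took all arrays at once. Groups follow the tissue and developmental stage labels. The 86 control probe sets of no plant origin were left out of the tests, and 61204 were fitted with limma 3.58.1 in R 4.3.3. lmFit estimated 13 group means, contrasts were taken, and eBayes moderated the variance (26 residual degrees of freedom and 7.5 prior ones). Adjusted p-values are Benjamini-Hochberg over the 61204. P-values weigh a difference of group means against the spread between replicates, pooled over the 13 groups, and the number of arrays limits the precision. SE is that of the fit, and fold is 2 to the power of the log2 difference.

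A platform annotation of 2007 gave 1273 probe sets 1 symbol each, in all 771 symbols, of which 758 were locus numbers and were not used. The text names petC, the named members of the photosynthesis and plastid list, the 5 named genes most and the 3 least like petC, and the 2 probe sets at either end, each gene by its brightest probe set. Members and lists were chosen with earlier results of these data known, and the 3 contrasts between changes from UNM to BCP were added after the values were seen.

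The test was tried on simulated data with 200 changed probe sets. Same-numbered replicates had correlated deviations, all over 0.1, only for anthers and stigmas at BCP (0.261, 0.104 and 0.129), as a hint of pairing from the data. Alternatives were 2 other scalings, a replicate block, a filter on dim probe sets, a variance trend with robust moderation, a fit of the compared groups alone, leaving out each array, group medians, the additional petC probe set, Spearman's correlation and likeness without pollen.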

Additional observations from a re-analysis of the deposited data

Results flagged for a closer look

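From UNM to BCP petC moved in opposite directions in different organs. Every BCP anther array lay below every UNM anther array (-1.49), while the ovary arrays all lay higher (0.91) and so did the stigma arrays (0.98). Arrays did not overlap, in either direction, for 35.2%, 24.5% and 26.4% of all probe sets in turn. The joint arrangement held for 668 of the 61204 probe sets (1.09%). The anther minus ovary difference of petC also changed sign between stages, from 2.78 at UNM to -3.12 at TCP. Anthers above ovaries at TET and UNM and below them at TCP, without overlap, held for 1534 probe sets (2.51%). These petC contrasts were not tested, since the gene was chosen on these levels.

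For the other named genes of the list the difference between the changes was tested in the limma fit, adjusted over all probe sets. These contrasts were added after the values were seen, so their p-values are given as a description. FBP changed differently in anthers than in ovaries, by -2.55 (adjusted p = 2.3e-08), and than in stigmas, by -2.49 (adjusted p = 3e-08). CAT1 changed differently in anthers than in ovaries, by -1.63 (adjusted p = 0.0082), while neither change was called alone, at -0.82 and 0.81. Its UNM ovary mean (4.72) lay under the tag controls' 95th percentile of 5.06, so the -1.63 is one of signal only. Of all probe sets, 9.51% were called for anthers against ovaries and 10.9% for anthers against stigmas.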

How the results depend on the processing

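Among the scalings, medians and single left-out arrays, the petC differences kept their direction with 2 exceptions near 0. Anthers minus stigmas at TCP (-0.17) was 0.08 with the arrays scaled to the brighter probe sets, and ovary TCP minus BCP (0.02) was -0.013 with medians and -0.057 without the BCP ovary replicate 3. The replicate block cannot move a difference of means here, since each group holds replicates 1, 2 and 3 (2.78 for petC in anthers minus ovaries at UNM in both fits); it bears on the p-values, and it changed no call of FBP or CAT1. With the arrays scaled to the hybridisation controls, these petC differences moved by more than the replicate SD: anther minus ovary 2.42 at UNM and -3.68 at TCP, anther minus stigma 2.72 at TET, 4.19 at UNM, 1.78 at BCP and -0.68 at TCP, stigma minus ovary -0.59 at TET. Under that scaling the others were pollen -1.93 against anthers, -5.61 against ovaries and -2.60 against stigmas at TCP, UNM minus TET 1.96 in anthers, 1.67 in ovaries and 0.49 in stigmas, BCP minus UNM -0.94 in anthers, 1.26 in ovaries and 1.47 in stigmas. Scaled to the brighter probe sets, those that moved were anther minus ovary -2.79 at TCP, pollen -4.11 against ovaries and -1.24 against stigmas at TCP. The cause of these shifts was not tested. With group medians, stigmas gave 1.53 for UNM minus TET. The additional petC probe set, which is near the tag controls, gave anther minus ovary -0.008 at TET, -0.16 at UNM, -0.13 at BCP and -0.24 at TCP, anther minus stigma 0.16 at TET, -0.22 at UNM and -0.38 at BCP, stigma minus ovary -0.17 at TET, 0.053 at UNM, 0.26 at BCP and -0.16 at TCP, pollen 0.62 against anthers, 0.39 against ovaries and 0.55 against stigmas at TCP. The other values were UNM minus TET -0.13 in anthers, 0.022 in ovaries and 0.24 in stigmas, BCP minus UNM -0.015 in anthers, -0.053 in ovaries and 0.15 in stigmas, TCP minus BCP -0.077 in anthers and -0.39 in stigmas. The mean of both probe sets, which gives the dim one equal weight, gave anther minus ovary 1.11 at TET, 1.31 at UNM and -1.68 at TCP, anther minus stigma 1.67 at TET, 2.19 at UNM and 0.88 at BCP, stigma minus ovary -0.56 at TET, -0.88 at UNM, -0.75 at BCP and -1.55 at TCP, pollen -0.44 against anthers, -2.12 against ovaries and -0.56 against stigmas at TCP. The remaining ones were UNM minus TET 1.27 in anthers, 1.07 in ovaries and 0.74 in stigmas, BCP minus UNM -0.75 in anthers, 0.43 in ovaries and 0.56 in stigmas, TCP minus BCP -1.78 in anthers and -0.78 in stigmas. Leaving out 1 array in turn, the petC difference at TET ranged from 1.94 to 2.49 for anthers minus ovaries and from 2.89 to 3.44 for anthers minus stigmas. It ranged from 2.41 to 2.96 for UNM minus TET in anthers, and the TET anther replicate 3 set one end of each of these 3 ranges. By Spearman's rho 153 probe sets reached 0.9, against 76 by Pearson's r.

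Of 48 differences of FBP and CAT1, each by its brighter probe set, 24 were called, where 1.4% to 42% of all probe sets were called by comparison. The count of 24 stayed within 1.5 times under every alternative run. No alternative used the second probe sets of these genes, which differed: anther TCP minus BCP was 1.86 by the second FBP probe set and -1.40 by the first. The difference of the CAT1 changes between anthers and stigmas (-1.22) was called with the filter on dim probe sets (adjusted p = 0.036) and without some single arrays. Signals under 5.06, the 95th percentile of the tag controls, cannot be told from those of probe sets without a target. On pollen arrays a stricter limit was taken, the highest tag value of 6.31. The 95th percentile there was 5.69, and FBP in pollen lay between these values. The limits bear on petC's additional probe set, the lowest petC value in pollen, and CAT1 and FBP in pollen. They also bear on FBP in TET ovaries and stigmas, and on CAT1 in TET and UNM ovaries and in stigmas. Tag values on the other arrays reached 5.47, and CAT1 in BCP and TCP ovaries had arrays under that.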
